A study of Homo sapiens with 2 samples.

Results

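The cells described here carried transcripts of both *TBX18* and *WT1* and were drawn from single-cell RNA sequencing of 2 BG-HFOs, heart-forming organoids that also generate blood. The organoids, 32.7 and 33.10, were grown independently to day 14 from the human embryonic stem cell line hES3 NKX2.5-eGFP, which carries a green fluorescent reporter at the cardiac gene *NKX2-5*. Aggregates were embedded in Matrigel and differentiated by biphasic modulation of WNT signalling with added haemato-endothelial cytokines and growth factors, and each organoid gave 1 library. Both belong to a single condition, so all comparisons were made between cell classes within the organoids and none between treatments.

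A barcode was taken as a member when it held 500 to 9000 genes and under 15% mitochondrial UMIs (unique molecular identifiers, each standing for 1 captured transcript), at least 1 UMI each of *TBX18* and *WT1*, no UMI of the endothelial gene *CDH5* or of the blood genes *PTPRC* and *RUNX1*, at most 3 of the cardiomyocyte gene *MYH6*, at most 2 of the proliferation genes *MKI67* and *TOP2A* together, and the mesenchymal gene *LUM* under 1000 CPM (UMIs of a gene per 1000000 UMIs). The cells were thus chosen by these measured values, and the levels of the 10 genes used in this and the other gates are a description and were not tested. The gate took 783 of 36814 barcodes, 323 of 16866 in organoid 32.7 and 460 of 19948 in organoid 33.10. The libraries held 191152562 and 233818881 UMIs in all, of which the members held 4330941 and 5624827. The 2 libraries shared 100 barcode sequences, and no barcode was a member in both.

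The epicardium is the mesothelial sheet that covers the heart. It arises from the proepicardium, a cluster of cells on the septum transversum, the mesodermal plate between the heart and the liver bud, and septum transversum mesenchyme also contributes to liver mesenchyme. Epicardial cells express the transcription factors TBX18, WT1 and TCF21, can leave the sheet by epithelial to mesenchymal transition to give fibroblasts and mural cells, and secrete factors that act on the myocardium. WT1 is also expressed in kidney podocytes, gonads and other mesothelia, and TBX18 in other mesenchyme, so neither gene alone marks the epicardium.

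Promoters of 3 genes that lay higher in these cells and were not part of the gate are shown because the results below return to them: *TCF21*, a basic helix-loop-helix factor of epicardium and cardiac fibroblasts, *SCN7A*, a sodium channel gene, and *NPHS1*, which encodes the podocyte slit-diaphragm protein nephrin. Each spans 250 bases before to 50 after a RefSeq start site (GRCh38.p14, 300 bases, written 5′ to 3′ on the gene's strand). Capitals mark 4 motifs searched on both strands, which do not overlap here. Basic helix-loop-helix factors bind forms of the E-box, searched as CAGCTG. The motif of zinc-finger GATA factors was searched as AGATAA. That of TEAD factors was searched as GGAATG. A motif shared by WT1 and EGR factors was searched as GCGTGGG. They lie at chr6:133888863-133889162 (plus strand) for *TCF21*, chr2:166494200-166494499 (minus strand) for the upstream of 2 *SCN7A* starts, and chr19:35852455-35852754 (minus strand) for *NPHS1*.
TCF21: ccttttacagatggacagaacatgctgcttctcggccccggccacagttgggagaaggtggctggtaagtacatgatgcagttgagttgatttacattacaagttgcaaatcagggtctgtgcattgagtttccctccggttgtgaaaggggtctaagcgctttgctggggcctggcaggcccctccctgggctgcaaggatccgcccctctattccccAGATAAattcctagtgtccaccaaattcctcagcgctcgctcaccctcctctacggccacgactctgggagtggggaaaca
SCN7A: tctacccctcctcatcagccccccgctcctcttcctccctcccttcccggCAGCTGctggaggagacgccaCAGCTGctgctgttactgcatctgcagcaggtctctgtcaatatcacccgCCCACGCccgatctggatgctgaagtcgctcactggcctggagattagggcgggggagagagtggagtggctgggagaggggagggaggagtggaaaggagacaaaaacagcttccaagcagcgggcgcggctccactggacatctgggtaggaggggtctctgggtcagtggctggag
NPHS1: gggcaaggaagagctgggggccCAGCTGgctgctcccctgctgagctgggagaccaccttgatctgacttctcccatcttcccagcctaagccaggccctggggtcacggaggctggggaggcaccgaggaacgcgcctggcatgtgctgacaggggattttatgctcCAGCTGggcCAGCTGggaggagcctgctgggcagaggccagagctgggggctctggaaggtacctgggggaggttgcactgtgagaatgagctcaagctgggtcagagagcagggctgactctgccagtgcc
The *TCF21* window held 1 AGATAA and none of the other motifs. The *SCN7A* window held 2 copies of CAGCTG and 1 of GCGTGGG on the opposite strand, whereas the downstream *SCN7A* window held none of the 4 motifs. The *NPHS1* window held 3 copies of CAGCTG. Among 35116 RefSeq promoter windows of this length, 17.9% held CAGCTG, 10.3% AGATAA, 14.0% GGAATG and 6.98% GCGTGGG, so such matches are common and mark letters, not bound sites.

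Members were 1.92% of the barcodes of organoid 32.7 (95% exact binomial interval 1.71 to 2.13) and 2.31% of those of organoid 33.10 (2.10 to 2.52), a mean of 2.11% ± 0.276 (SD, n = 2 organoids). The intervals cover counting error only. In organoid 32.7, 15632 barcodes passed the gene and mitochondrial limits, 1496 of them held *TBX18* and 635 also held *WT1*. In organoid 33.10 these numbers were 19117, 2267 and 978. The share rose with the depth of the barcode, from 0.122% and 0.274% of barcodes under 2500 UMIs to 3.96% and 4.29% of those with 10000 to 20000, and was 1.74% and 1.49% above that. It is therefore a share of barcodes in which both transcripts were seen, not of cells of this type. Members had a median of 12639 and 11531.5 UMIs, against 7842 and 8284.5 over all barcodes.

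Both transcripts were sparse. *TBX18* was held as a single UMI by 141 of 323 members in organoid 32.7 and 238 of 460 in organoid 33.10, and *WT1* by 159 and 208. Free RNA or a doublet can put a UMI into a barcode whose cell does not express the gene, so other classes were looked at, first endothelial cells (at least 2 UMIs of *CDH5*). Both were found together in 25 of 2074 endothelial barcodes (1.21%) in organoid 32.7 and 27 of 1986 (1.36%) in organoid 33.10, at median depths of 12959 and 10858 UMIs. The share with both was higher in cardiomyocytes, at 1.86% and 2.21%, and in *LUM*-high mesenchyme, at 1.38% and 2.29%. Free RNA, doublets and expression were not told apart in these shares. The detection of either gate gene in members is fixed by the gate and is not set against these shares.

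*TCF21* and *SCN7A* were not used by the gate but are among the markers by which these cells were named, with earlier results of these data known, so their levels describe the label and are no independent check of it. *TCF21* (chromosome 6, 133889113 to 133895553, GRCh38) was at 251 and 247 CPM (here of the summed UMIs of a class) in the members of organoids 32.7 and 33.10. It was at 131 and 130 CPM in mesenchyme that held neither *TBX18* nor *WT1*, 63.9 and 75.7 in *LUM*-high mesenchyme, 15.6 and 19.3 in cardiomyocytes and 8.97 and 11.4 in endothelial cells. The groups did not overlap in this order. At least 1 UMI of *TCF21* was found in 79.3% and 77.4% of members, and after each barcode was thinned to 4000 UMIs, leaving out shallower ones, in 54.9% and 55.2% of members against 2.36% and 2.40% of endothelial cells.

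*SCN7A* (chromosome 2, 166403573 to 166611482) was at 313 and 300 CPM in members, 59.3 and 65.5 in double-negative mesenchyme, 16.5 and 37.0 in *LUM*-high mesenchyme, 14.3 and 17.4 in cardiomyocytes and 6.60 and 9.41 in endothelial cells. *LUM*-high mesenchyme and cardiomyocytes overlapped, endothelial cells were lowest, and members lay above all of them in both organoids. After thinning, 65.0% and 65.4% of members held a UMI, against 2.05% and 2.23% of endothelial cells. Both genes were highest in members as a group, with an exception among its sub-clusters that is given below.

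**Figure D1:**
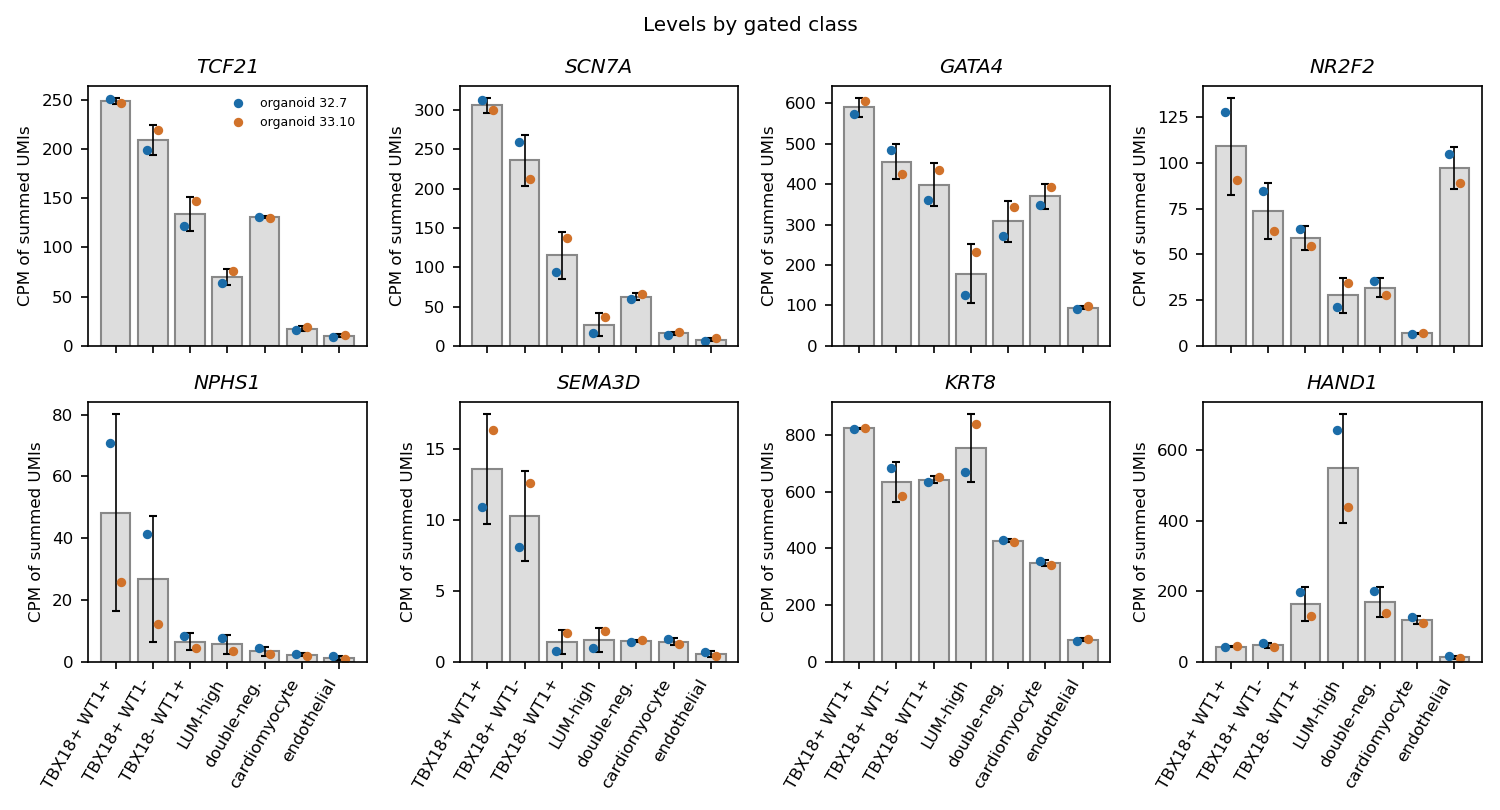
Levels of 8 genes (CPM of summed UMIs, linear axis from 0) in 7 gated classes. Bars are means of 2 organoids with SD, and points are organoids. TCF21, SCN7A, GATA4, NPHS1 and SEMA3D had their highest mean in TBX18+ WT1+ members, and HAND1 was highest in LUM-high mesenchyme (658 and 440 CPM).

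Cells that held only one of the 2 gate transcripts, in barcodes of at least 5000 UMIs, differed from each other. In *TBX18*-only cells (199 and 299 barcodes) *SCN7A* was at 259 and 213 CPM, against 93.6 and 137 in *WT1*-only cells (483 and 707 barcodes). *SEMA3D*, a secreted guidance factor known from the proepicardium, was at 8.07 and 12.6 CPM in *TBX18*-only cells, close to its 10.9 and 16.4 in members, but at 0.783 and 2.00 in *WT1*-only cells. *NPHS1* was at 41.2 and 12.3 CPM in *TBX18*-only cells and 8.46 and 4.48 in *WT1*-only cells. *HAND1*, a cardiac mesoderm factor, went the other way, with 197 and 129 CPM in *WT1*-only cells, 51.8 and 40.7 in *TBX18*-only cells and 41.1 and 44.4 in members. For these 4 genes members lay nearer to the *TBX18*-only cells in both organoids, which is a description of these values and was not tested. Sums over gene lists used below went both ways. The 11 cardiomyocyte genes gave 2900 and 2540 CPM in members, 3240 and 2720 in *TBX18*-only cells and 1630 and 1580 in *WT1*-only cells. The 19 receptors and channels gave 2600 and 3040, 2290 and 2390, and 2830 and 3210 CPM in that order. The 12 blood genes gave 1490 and 2400, 4550 and 9700, and 2410 and 4750.

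The limit on *LUM* cut through a gradient. Members without a *LUM* UMI (235 and 349 barcodes) had *SCN7A* at 368 and 334 CPM, those with *LUM* at up to 500 CPM of the barcode (66 and 92) had 211 and 216, and those just inside the limit, at 500 to 1000 (22 and 19), had 150 and 151. Just outside it, at 1000 to 1500, 9 and 5 barcodes had 76.9 and 141 CPM. *DCN*, which encodes the matrix proteoglycan decorin, went from 8.25 and 3.39 CPM through 39.4 and 26.5 to 114 and 124 inside the limit, and 265 and 399 outside. *HAND1* moved the same way, from 25.4 and 31.0 CPM without *LUM* to 114 and 159 inside and 376 and 399 outside. *TCF21* fell steadily in organoid 32.7 (283, 199, 129 and 111 CPM) but not in organoid 33.10 (270, 171, 243 and 164).

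**Figure D2:**
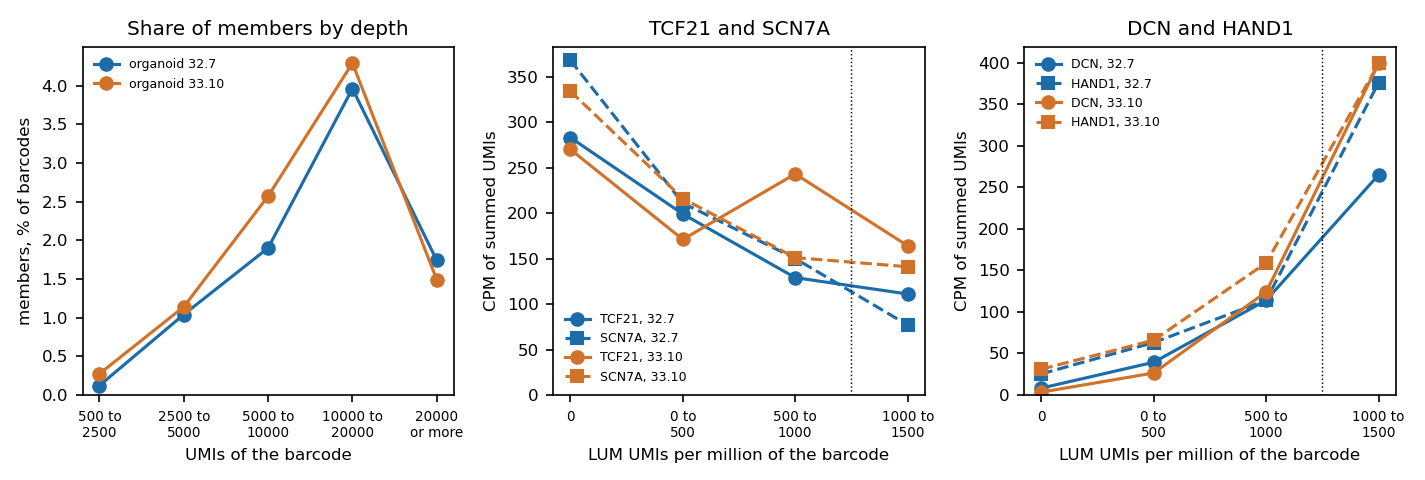
Left, members as a percentage of barcodes by UMIs per barcode. Middle and right, CPM of 4 genes in TBX18+ WT1+ barcodes by the LUM CPM of the barcode, with the dotted line at the limit of 1000 and bins under 5 barcodes left out. The share peaked at 3.96% and 4.29%, and SCN7A fell while DCN and HAND1 rose towards the limit in both organoids.

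Of 12 genes followed along the number of gate UMIs, *SCN7A*, *TCF21*, *GATA4*, *NR2F2*, *NPHS1* and *KRT19* were higher at each step in both organoids, and the others were not. Members with 2 UMIs of *TBX18* and *WT1* together (81 and 122), with 3 to 4 (122 and 171) and with 5 or more (120 and 167) had *SCN7A* at 230, 295 and 363 CPM in organoid 32.7 and at 232, 288 and 340 in organoid 33.10. *GATA4* was at 447, 452 and 725 CPM and at 439, 618 and 676. *NPHS1* was at 26.8, 38.9 and 115 CPM and at 14.8, 17.9 and 36.3. *HAND1* went down from the first stratum, at 79.1, 31.6 and 31.7 CPM and at 74.1, 32.9 and 38.6, and *TNNT2* kept no order in organoid 32.7, at 916, 705 and 896. Median depth rose along the same strata, from 9729 to 14432 UMIs and from 9262 to 15016, and its part in these values was not tested.

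Members were then compared with 3 gated classes on UMIs summed per organoid, since cells of an organoid are not replicates. The classes were *LUM*-high mesenchyme with at least 1000 CPM and 5 UMIs of *LUM* (795 and 262 barcodes), mesenchyme with neither *TBX18* nor *WT1*, at least 5 UMIs of *COL3A1* and at least 5000 UMIs in all (718 and 822, called double-negative) and cardiomyocytes with at least 10 UMIs of *MYH6* (862 and 997). Double-negative means that neither transcript was seen, not that it was absent, since many members held only a single UMI of either. The class can thus include cells like the members, and how many was not tested. Of these 3 only the double-negative class had a floor on depth, and with all classes held to 5000 UMIs its comparison gave 314 genes higher and 328 lower, beside the values that follow. A gene was called at an adjusted p under 0.05 in edgeR's quasi-likelihood test and a log2 fold change of at least 1 in size. Of 18795 genes tested, 747 (3.97%) were higher and 608 (3.23%) lower in members than in *LUM*-high mesenchyme. Against double-negative mesenchyme 312 (1.66%) were higher and 340 (1.81%) lower, and against cardiomyocytes 1876 (9.98%) and 1798 (9.57%). The counts against double-negative mesenchyme depended on the setting: 476 genes were higher with the organoid as a block, 522 were higher and 538 lower with at least 2 UMIs of both gate genes, and 604 were lower without the filter on low counts. The 3 comparisons share the same member sums, so their results are not independent of each other.

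*TCF21* was higher in members than in *LUM*-high mesenchyme by 1.68 ± 0.129 (log2 fold change ± SE, edgeR adjusted p = 1.76e-05) and than in cardiomyocytes by 3.67 ± 0.137 (edgeR adjusted p = 6.12e-09). Against double-negative mesenchyme the log2 fold change was 0.81 ± 0.121 (edgeR adjusted p = 0.00298), under the size required for a call. *SCN7A* was higher in all 3 comparisons, by 3.49 ± 0.251 (edgeR adjusted p = 1.05e-05), 2.17 ± 0.220 (edgeR adjusted p = 0.000393) and 4.11 ± 0.242 (edgeR adjusted p = 1.75e-07) against *LUM*-high mesenchyme, double-negative mesenchyme and cardiomyocytes. These calls held under every alternative tried.

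The counts in each gene list stand beside 3.97% higher and 3.23% lower of all genes against *LUM*-high mesenchyme, 1.66% and 1.81% against double-negative mesenchyme and 9.98% and 9.57% against cardiomyocytes, and its medians beside all-gene medians of 0.0169, 0.00794 and 0.0122 in the same order. Transcription factors of the epicardium and its neighbours, a list of 22 genes that were all tested, divided rather than moving together. Against *LUM*-high mesenchyme 5 of 22 were higher (*TCF21*, *GATA4*, *TBX20*, *TBX5* and *NR2F2*) and 3 lower (*BNC2*, *HAND1* and *TBX3*), with a median log2 fold change of -0.168 beside 0.0169 over all genes. Against double-negative mesenchyme 3 were higher (*BNC1*, *TBX5* and *NR2F2*) and 3 lower (*HAND1*, *TBX3* and *ISL1*), with a median of 0.021 beside 0.00794. Against cardiomyocytes 8 were higher, among them *SNAI2*, *PRRX1* and *ZEB2*, and 4 lower (*HAND1*, *MEIS1*, *TBX20* and *TBX5*), with a median of 0.753 beside 0.0122.

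*GATA4*, a zinc-finger factor needed for the proepicardium, was at 574 and 606 CPM in members, 127 and 232 in *LUM*-high mesenchyme, 272 and 344 in double-negative mesenchyme, 349 and 392 in cardiomyocytes and 91.9 and 97.4 in endothelial cells. Members lay above every one of these classes in both organoids. The difference was called only against *LUM*-high mesenchyme (log2 fold change 1.59 ± 0.210, edgeR adjusted p = 0.00055). It was 0.82 against double-negative mesenchyme and 0.51 against cardiomyocytes.

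*NR2F2*, the nuclear receptor COUP-TFII of atrial, venous and epicardial cells, was at 128 and 90.7 CPM in members and 21.0 and 34.4 in *LUM*-high mesenchyme, 35.4 and 28.0 in double-negative mesenchyme and 6.71 and 6.98 in cardiomyocytes. It was higher in members in all 3 comparisons, by 1.89 ± 0.236, 1.66 ± 0.217 and 3.84 ± 0.246, with edgeR adjusted p = 0.000378, 0.00136 and 3.18e-07. Endothelial cells, with 105 and 89.2 CPM, overlapped with members, so this gene did not set members apart from all classes.

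*HAND1* was called lower in all 3 comparisons. At 41.1 and 44.4 CPM in members it was under the 658 and 440 of *LUM*-high mesenchyme (log2 fold change -3.87 ± 0.305, edgeR adjusted p = 1.97e-05), the 200 and 139 of double-negative mesenchyme (-2.11 ± 0.290, edgeR adjusted p = 0.00176) and the 126 and 111 of cardiomyocytes (-1.63 ± 0.287, edgeR adjusted p = 0.00093). *TBX5*, a T-box factor of the heart field and epicardium, was at 77.8 and 75.7 CPM. It exceeded *LUM*-high mesenchyme (8.94 and 29.3 CPM) by 2.09 ± 0.395 (edgeR adjusted p = 0.005) and double-negative mesenchyme (23.5 and 24.7) by 1.55 ± 0.345 (edgeR adjusted p = 0.0207), and lay under cardiomyocytes (152 and 150) by -1.14 ± 0.323 (edgeR adjusted p = 0.017). The last call was lost with at least 2 UMIs of both gate genes (-0.855, edgeR adjusted p = 0.0579). *BNC1* (basonuclin 1, of mesothelia) was at 34.9 and 24.5 CPM, not different beyond its error from the 36.4 and 22.4 of *LUM*-high mesenchyme (log2 fold change -0.24 ± 0.366, edgeR adjusted p = 0.71) and higher than in the other 2 classes.

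**Figure D3:**
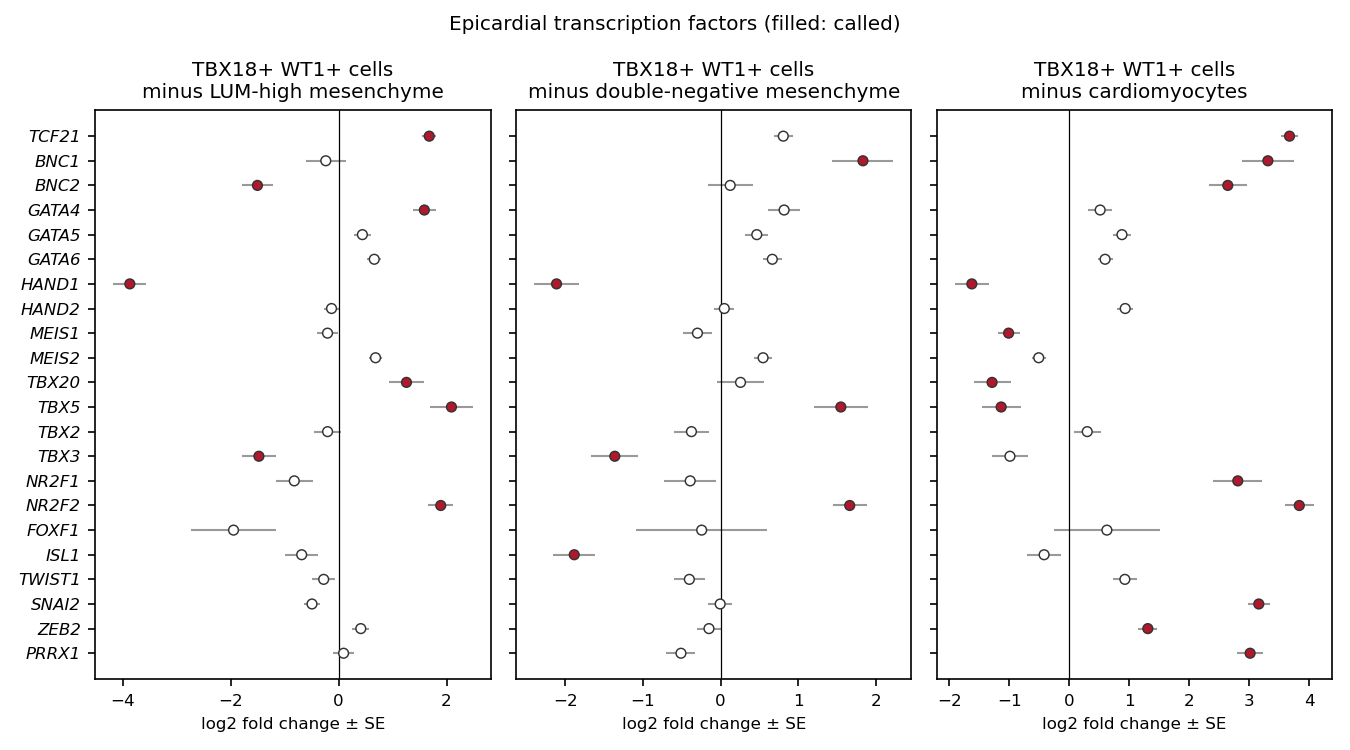
Log2 fold change with SE (x axis) of 22 epicardial transcription factors in TBX18+ WT1+ cells against 3 classes, filled where called at an adjusted p under 0.05 and a size of at least 1. SCN7A is not on this list. HAND1 was lower in all 3 panels and NR2F2 higher in all 3, while TBX5 was higher against both mesenchymal classes and lower against cardiomyocytes, the last a call lost with at least 2 UMIs of both gate genes.

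Of 12 genes of septum transversum and liver mesenchyme, 2 were higher and 4 lower than in *LUM*-high mesenchyme, 2 higher and none lower than in double-negative mesenchyme, and 6 higher and none lower than in cardiomyocytes (medians -0.416, -0.265 and 1.33, beside 0.0169, 0.00794 and 0.0122 over all genes). *LHX2*, a LIM-homeobox factor of hepatic stellate cells and septum transversum, was at 35.1 and 38.6 CPM in members against 6.90 and 21.5, 12.7 and 12.7, and 2.56 and 5.39 in the same order of classes. It was higher in each, by 1.44 ± 0.398, 1.41 ± 0.360 and 3.03 ± 0.392, with edgeR adjusted p = 0.0321, 0.0353 and 9.16e-05. Against double-negative mesenchyme the calls of *LHX2* and *LHX9* were lost after 10% of the library profile was removed as free RNA (edgeR adjusted p = 0.0506 and 0.0599). Their log2 fold changes were then 1.45 and 2.75, beside 1.41 and 2.77 before. *LHX9*, a related factor, was also called higher but rested on 22 UMIs in all members against 0 in *LUM*-high mesenchyme, at least 7.15-fold higher when 3 UMIs over the class are taken as the floor.

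*HGF*, the ligand of the MET receptor, was at 139 and 148 CPM in members, 31.4 and 145 in *LUM*-high mesenchyme, 65.1 and 72.3 in double-negative mesenchyme and 4.15 and 10.4 in cardiomyocytes. It exceeded cardiomyocytes by 4.12 ± 0.580 (edgeR adjusted p = 0.000177). It did not pass against *LUM*-high mesenchyme, whose organoids differed widely, or against double-negative mesenchyme (edgeR adjusted p = 0.402 and 0.275). The genes lower than in *LUM*-high mesenchyme were *MAB21L2*, *COLEC10*, *RELN* and *BMP4*, the last at 21.9 and 17.2 CPM against 41.2 and 37.0. *RELN* fell under the size required with at least 2 UMIs of both gate genes, at -0.994.

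Of 22 genes of the mesothelial surface, 19 were tested, and 1 was higher and 1 lower than in *LUM*-high mesenchyme, 4 higher and none lower than in double-negative mesenchyme, and 6 higher and 1 lower than in cardiomyocytes. Medians were -0.028, 0.988 and 0.626, and 1 and 1 of 19 is near the 3.97% and 3.23% of all genes called against *LUM*-high mesenchyme. With the organoid as a block the counts were 2 and 4, 8 and 1, and 7 and 2. *KRT8*, an epithelial keratin of mesothelium, was at 822 and 824 CPM in members, 669 and 838 in *LUM*-high mesenchyme, 429 and 422 in double-negative mesenchyme and 355 and 341 in cardiomyocytes. It did not differ from *LUM*-high mesenchyme beyond its error (log2 fold change -0.03 ± 0.121, edgeR adjusted p = 0.913) and exceeded cardiomyocytes by 1.09 ± 0.122 (edgeR adjusted p = 3.09e-05). *KRT19* was lower than in *LUM*-high mesenchyme (564 and 460 against 1170 and 875 CPM, log2 fold change -1.18 ± 0.279, edgeR adjusted p = 0.0165), a call lost with at least 2 UMIs of both gate genes (-0.925, edgeR adjusted p = 0.0999).

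*CDH3*, the adhesion molecule P-cadherin, was at 85.9 and 45.9 CPM in members and 23.0 and 13.0 in double-negative mesenchyme, a log2 fold change of 1.75 ± 0.348 (edgeR adjusted p = 0.0124). *PKHD1L1*, a large membrane protein, was at 22.2 and 21.7 CPM against 4.62 and 4.84 (2.09 ± 0.276, edgeR adjusted p = 0.00147). *LRRN4*, a mesothelial membrane protein, was at 42.5 and 41.4 CPM, beside 41.2 and 46.2 in double-negative mesenchyme. *PODXL* (podocalyxin) was at 24.7 and 13.7, beside 53.1 and 14.6 in *LUM*-high and 9.12 and 6.67 in double-negative mesenchyme. Neither was called in any comparison without the block. *UPK3B*, a uroplakin, gave 3 and 1 UMIs in all members, *MSLN*, mesothelin, 1 and 2, and *ITLN1*, an epicardial lectin, 24 and 3. In organoid 32.7 *ITLN1* was at 5.54 CPM against 0.677, 0.474 and 0.618 in *LUM*-high mesenchyme, double-negative mesenchyme and cardiomyocytes, but at 0.533 in organoid 33.10, and no difference passed the test without the block (edgeR adjusted p = 0.297, 0.177 and 0.087), whereas all 3 were called higher with the organoid as a block and also without the filter on low counts. The 4 UMIs of *UPK3B* and 3 of *MSLN* were too few to compare with other classes.

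*ALDH1A2*, the enzyme that makes retinoic acid in epicardium, was at 12.0 and 6.58 CPM in members, near the 7.31 and 5.59 of *LUM*-high and the 10.5 and 5.81 of double-negative mesenchyme (edgeR adjusted p = 0.766 and 0.972). It was lower than the 20.2 and 28.3 CPM of cardiomyocytes, by -1.57 ± 0.365 (edgeR adjusted p = 0.00564). Of 17 genes of the retinoic acid pathway 12 were tested. Against *LUM*-high mesenchyme *RDH10*, which makes retinaldehyde, was higher and *DHRS3* and *CRABP1* were lower, against double-negative mesenchyme *CRABP1*, a retinoic acid binding protein, was lower, and against cardiomyocytes *ALDH1A2* and the receptor gene *RARB* were lower. Medians were -0.136, -0.137 and -0.0908, and with counts this small nothing particular to the list is read from them. With the organoid as a block the counts higher and lower were 2 and 2, 1 and 1, and 2 and 2. Against *LUM*-high mesenchyme *DHRS3* lost its call with DESeq2 (adjusted p = 0.052), with at least 2 UMIs of both gate genes and with free RNA removed (edgeR adjusted p = 0.127 and 0.068). Its log2 fold changes were then -1.56, -1.36 and -1.92, beside -1.67 before. *CRABP1* lost its call with free RNA removed and with *MYH6* at 0 (edgeR adjusted p = 0.0575 and 0.0731), at -1.61 and -1.27 beside -1.48 before.

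*NPHS1* (chromosome 19, 35825372 to 35869287) stood out among genes of other WT1-expressing organs. It was at 70.9 and 25.8 CPM in members, 7.72 and 3.44 in *LUM*-high mesenchyme, 4.26 and 2.37 in double-negative mesenchyme, 2.56 and 1.87 in cardiomyocytes and 1.69 and 0.721 in endothelial cells. The members of organoid 32.7 were well above those of 33.10, yet in each organoid members were above every other class. Log2 fold changes were 2.73 ± 0.667, 3.74 ± 0.668 and 4.29 ± 0.677 in the 3 comparisons, with edgeR adjusted p = 0.0189, 0.0072 and 0.000408. Only 34.4% and 18.7% of members held a UMI. The level was uneven among members, at 330 and 145 CPM in sub-cluster 4, described below, 18.4 and 12.8 in sub-cluster 1 and none in sub-cluster 6. The *TBX18*-only cells given above also carried this transcript, below members in each organoid, and were not tested. Of the 13 genes on the kidney and gonad list, 7 were too low to test, and *PAX8*, *SIX2* and *FOXL2* had no UMI in any member. The list without *NPHS1* therefore gave few transcripts: all 13 genes summed to 81.7 and 40.0 CPM. Of the 6 tested, *NPHS1* and *LHX9* were higher in each comparison, and *SALL1* and *EYA1* were lower than in cardiomyocytes. *SALL1* lost its call with at least 2 UMIs of both gate genes (-0.883, edgeR adjusted p = 0.107).

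Among secreted factors, 29 of 31 were tested. Members were higher than *LUM*-high mesenchyme in *FGF10*, *BMP2*, *TGFB2* and *SEMA3D* and lower in *BMP4* and *SEMA3C* (6 higher and 2 lower with the organoid as a block). Against double-negative mesenchyme *SEMA3D* was higher, and *NRG1* and *RSPO3* lower. Against cardiomyocytes 6 were higher (*IGF1*, *IGF2*, *HGF*, *PTN*, *KITLG* and *SEMA3D*) and 8 lower, among them *BMP2*, *BMP7*, *FGF9* and *SLIT2*. Medians were 0.155, -0.0476 and 0.195, beside 0.0169, 0.00794 and 0.0122 over all genes. With 1 higher and 2 lower of 29, against 1.66% and 1.81% of all genes, nothing particular to this list is read from the comparison with double-negative mesenchyme. *BMP2* was no longer called against *LUM*-high mesenchyme with at least 2 UMIs of both gate genes (0.959) or with *MYH6* at 0 (0.856). Against cardiomyocytes *KITLG* lost its call with at least 2 UMIs of both (0.874, edgeR adjusted p = 0.231). *FGF9* did so too (-2.01, edgeR adjusted p = 0.0521), and also with DESeq2 (-2.37, adjusted p = 0.0574), beside -2.40 before.

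*SEMA3D* was low, at 10.9 and 16.4 CPM in members against 0.948 and 2.15, 1.42 and 1.51, and 1.59 and 1.22. Members stood above these classes, which overlapped with each other. The *TBX18*-only cells described above overlapped with members and were not tested. Its log2 fold changes were 3.2 ± 0.500, 3.09 ± 0.429 and 3.12 ± 0.414, with edgeR adjusted p = 0.00158, 0.00193 and 0.000112. *IGF2*, a growth factor that epicardium supplies to the embryonic myocardium, was at 323 and 406 CPM in members and at 35.7 and 35.0 in cardiomyocytes, 3.21 ± 0.245 higher (edgeR adjusted p = 1.28e-06). It was shared with mesenchyme, at 373 and 468 CPM in *LUM*-high and 278 and 229 in double-negative cells. *NRG1*, neuregulin, was at 28.2 and 24.9 CPM and lower than the 73.8 and 87.1 of double-negative mesenchyme by -1.73 ± 0.321 (edgeR adjusted p = 0.00904).

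Of 19 receptors and channels, *SCN7A* and *ROBO2* were higher and 5 lower (*FGFR2*, *TGFBR3*, *NRP2*, *S1PR3* and *THY1*) than in *LUM*-high mesenchyme. Against double-negative mesenchyme *SCN7A*, *ROBO2* and *LPAR1* were higher and *TGFBR3*, *NRP1*, *NRP2* and *THY1* lower, and against cardiomyocytes 6 were higher and 2 lower. Medians were -0.189, -0.0514 and 0.441. *ROBO2*, a SLIT receptor, was at 407 and 564 CPM in members, 137 and 202 in *LUM*-high mesenchyme, 146 and 195 in double-negative mesenchyme and 54.5 and 57.7 in cardiomyocytes. The differences were 1.37 ± 0.242, 1.38 ± 0.239 and 2.95 ± 0.253, with edgeR adjusted p = 0.00325, 0.00622 and 3.38e-06. *THY1*, the surface antigen CD90 of mesenchymal cells, was at 42.0 and 35.6 CPM, under the 169 and 188 of *LUM*-high and the 104 and 84.3 of double-negative mesenchyme (-2.37 ± 0.236 and -1.41 ± 0.231, edgeR adjusted p = 9.88e-05 and 0.00478) and above the 10.3 and 11.0 of cardiomyocytes. Endothelial cells had more of it, at 251 and 207 CPM. Against double-negative mesenchyme *THY1* lost its call with free RNA removed (edgeR adjusted p = 0.071), at a log2 fold change of -1.66. *NRP2* (-0.996) and *LPAR1* (0.934) fell under the size required with *MYH6* at 0, and *LPAR1* also without the filter on low counts (0.968).

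Of 22 matrix genes, 11 were higher and 2 lower than in cardiomyocytes, with a median of 0.873 beside 0.0122 over all genes. Against *LUM*-high mesenchyme 2 were higher and 4 lower (median -0.214 beside 0.0169), and against double-negative mesenchyme none was higher and 1 lower (median -0.225 beside 0.00794), or 2 lower with the organoid as a block. Over all genes, too, more were called against cardiomyocytes (9.98% higher and 9.57% lower) than against *LUM*-high (3.97% and 3.23%) or double-negative mesenchyme (1.66% and 1.81%), and the comparisons were not tested against each other. *COL1A1* was at 1260 and 1080 CPM in members and 197 and 179 in cardiomyocytes, 2.48 ± 0.161 higher (edgeR adjusted p = 3.52e-07), and close to the 1190 and 965 of double-negative mesenchyme (-0.01 ± 0.152, edgeR adjusted p = 0.994). *HAPLN1*, a hyaluronan link protein of the cardiac cushions, was at 226 and 203 CPM, under the 661 and 876 of double-negative mesenchyme (-1.96 ± 0.207, edgeR adjusted p = 0.000433). *DCN* was at 23.3 and 13.9 CPM against 664 and 386 in *LUM*-high mesenchyme (-5.03 ± 0.700, edgeR adjusted p = 0.000749). Members and this class were divided by *LUM*, and *DCN*, *HAND1* and *SCN7A* all moved along the *LUM* gradient given above; the part of the gate in their differences from *LUM*-high mesenchyme was not tested.

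Of 12 mural and smooth muscle genes, *DES*, the filament protein desmin, was higher in members in all 3 comparisons, at 116 and 153 CPM against 43.2 and 67.1, 46.5 and 56.6, and 23.6 and 29.7 (1.17 ± 0.231, 1.26 ± 0.221 and 2.17 ± 0.228, edgeR adjusted p = 0.00626, 0.00684 and 1.74e-05). *RGS5*, a pericyte gene, was at 354 and 428 CPM, level with *LUM*-high mesenchyme (363 and 426) and under the 797 and 812 of double-negative mesenchyme. *ACTA2*, *TAGLN*, *CNN1* and *MYH11*, contractile genes, were lower than in cardiomyocytes, and *CNN1* was higher than in *LUM*-high mesenchyme. In all, 2 mural genes were higher and none lower, 1 and 1, and 1 and 4, with medians of 0.283, -0.395 and -0.0889, so 1 of 12 higher than in cardiomyocytes is near the 9.98% of all genes. With the organoid as a block 1 was lower than in *LUM*-high and 2 than in double-negative mesenchyme.

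Outside the lists, the 10 genes with the largest fold change in each direction were taken from called genes with at least 20 CPM in the higher class. Against *LUM*-high mesenchyme the members were led by *ZNF385B*, a zinc-finger gene, at 150 and 82.1 CPM against 2.71 and 3.01 (log2 fold change 5.18 ± 0.437, edgeR adjusted p = 3.26e-05). *TECRL*, a gene linked to inherited arrhythmia, was at 655 and 499 CPM against 29.2 and 30.1, and *RXRG*, a retinoid X receptor, at 45.7 and 47.6 against 1.76 and 3.87. *COL8A1*, a short-chain collagen, was at 284 and 393 against 16.2 and 18.5. On the other side were *NPNT* (nephronectin), 6.47 and 1.60 against 234 and 61.5, and *FRZB*, a secreted WNT antagonist, 9.24 and 8.53 against 433 and 181, besides *DCN* and *FST*, the activin antagonist follistatin. These genes were not all low in cardiomyocytes, where *RXRG* was at 59.0 and 57.6 CPM and *TECRL* at 1400 and 1030, above the members (log2 fold change of *TECRL* -1.23 ± 0.226, edgeR adjusted p = 0.00122, and -0.878 with at least 2 UMIs of both gate genes, no longer called).

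Against double-negative mesenchyme *NPHS1* led, followed by *ARAP2* (58.6 and 38.4 against 5.69 and 5.81 CPM, log2 fold change 2.95 ± 0.253, edgeR adjusted p = 0.000164). Also among the 10 were the pacemaker channel gene *HCN4*, the potassium channel gene *KCNMA1* and the integrin gene *ITGB8*. *HCN4*, at 27.9 CPM in both organoids, was lower than the 59.6 and 62.5 of cardiomyocytes (-1.29 ± 0.214, edgeR adjusted p = 0.000609), a call lost with at least 2 UMIs of both gate genes (-0.7). The lower genes included *TAC1*, the substance P precursor, at 289 and 234 CPM in members against 2170 and 2510, *C7*, a complement component, at 16.6 and 38.8 against 254 and 317, and *NKX2-5* at 7.62 and 6.04 against 43.8 and 40.0. The *TAC1* difference was -3.28 ± 0.585 (edgeR adjusted p = 0.00719) and that of *C7* -3.47 ± 0.367 (edgeR adjusted p = 0.000433). With free RNA removed *TAC1* lost its call (edgeR adjusted p = 0.113), at a log2 fold change of -3.51. *NKX2-5* is the reporter locus of the cell line, and its own transcript was low in members.

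Against cardiomyocytes the leading genes included *AQP3*, a water and glycerol channel, at 144 and 110 CPM against 4.77 and 5.97 (4.40 ± 0.258, edgeR adjusted p = 1.71e-07), *CFI*, complement factor I, at 94.7 and 68.4 against 4.15 and 2.88, and *LPAR1*, a lysophosphatidic acid receptor, at 23.6 and 25.2 against 1.5 and 0.791. *FBXO40*, a muscle F-box gene, had no UMI in any member and 647 in cardiomyocytes, at least 85.1-fold lower with a floor of 3 UMIs over the members. The ventricular factor *IRX4*, *CKM* (muscle creatine kinase) and *NPPA* (atrial natriuretic peptide) were among the other genes most reduced.

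Transcripts of other cell types were present in members and are given as measured. The 11 cardiomyocyte genes on the list summed to 2900 and 2540 CPM in members, with *TNNT2* the most abundant. They summed to 37400 and 32600 CPM in cardiomyocytes, 2430 and 2670 in double-negative mesenchyme, 1450 and 1380 in *LUM*-high mesenchyme and 333 and 338 in endothelial cells. All 11 were lower than in cardiomyocytes, and 6 (*TNNT2*, *MYL4*, *ACTN2*, *ACTC1*, *TTN* and *RYR2*) were higher than in *LUM*-high mesenchyme. *ACTC1* and *MYL4* were among the leading genes of sub-cluster 3, described below. Members outside it had 56.8 and 102 CPM of these genes, beside *LUM*-high mesenchyme at 47.9 and 40.4, and 81.8 and 92.1. The clusters were formed from the same values, so a lower level outside sub-cluster 3 follows from the clustering. The part of this sub-cluster in the calls was therefore not tested. *TNNT2*, at 107 and 135 CPM in *LUM*-high mesenchyme, was at 390 and 391 in sub-cluster 1 and 100 and 103 in sub-cluster 6. Of *TNNT2* (cardiac troponin T) members had 833 and 725 CPM, above the 59.8 and 62.4 of endothelial cells. The gate allows up to 3 UMIs of *MYH6*. With *MYH6* at 0 (279 and 398 members), *MYL4* and *RYR2* were no longer called higher than in *LUM*-high mesenchyme, at 0.89 and 0.97, and the other 4 calls held. *RYR2* was also not called in barcodes of at least 5000 UMIs, at a log2 fold change of 0.999.

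The 12 blood genes summed to 1490 and 2400 CPM in members against 1340 and 2750 in endothelial cells. The highest blood gene in members was *HBZ* in organoid 32.7 (482 CPM) and *HBG2* in organoid 33.10 (798 CPM). The top 3 members held 73.2% of the *HBZ* UMIs in organoid 32.7 and 41.0% in organoid 33.10. The 8 endothelial genes summed to 345 and 371 CPM against 4060 and 3810, and *PECAM1* was at 3.69 and 11.7. *ESAM*, an endothelial adhesion gene, and *SRGN*, a blood-cell proteoglycan gene, were called higher than in *LUM*-high mesenchyme but no longer without the barcodes that Scrublet, a doublet caller, scored highest (log2 fold changes 0.01 and 0.64), nor with at least 2 UMIs of both gate genes (0.00 and 0.38). Of the endothelial genes 1 was higher and 2 lower than in *LUM*-high mesenchyme, none and 1 against double-negative mesenchyme and 2 and 1 against cardiomyocytes, and of the blood genes 1 and none, none and 1, and 1 and none. Without the top-scoring barcodes the endothelial counts were none and 3, none and 4, and 3 and 2, and the blood counts none and 1, none and none, and 1 and none. With the organoid as a block the blood counts were 3 and none, none and 4, and 1 and 2. *HBZ*, an embryonic globin gene and the one lower than in double-negative mesenchyme, lost its call without the top-scoring barcodes (edgeR adjusted p = 0.0555) and with free RNA removed (0.148). Its log2 fold change there was -1.25 and -4.15 in these 2 settings, beside -1.61 before. The 8 foregut endoderm genes summed to 408 and 37.5 CPM. In organoid 32.7 3 members held 98.2% of the *AFP* UMIs, and in organoid 33.10 *AFP* gave 2 UMIs in all. *TTR*, another liver transcript, was called higher than in cardiomyocytes, with 97.3% of its UMIs in 3 members of organoid 32.7 and none in organoid 33.10. It lost its call with DESeq2 (adjusted p = 0.139), at a log2 fold change of 4.34 beside 4.37 before. It was the 1 foregut gene called in any comparison, whereas with the organoid as a block 1, 1 and 4 were higher than in *LUM*-high mesenchyme, double-negative mesenchyme and cardiomyocytes. Of 7 neural and neural crest genes only *ELAVL3* and *STMN2* could be tested, and both were higher than in cardiomyocytes. *ELAVL3* was also called higher than in *LUM*-high and double-negative mesenchyme, and lost both calls with DESeq2 (3.45 and 2.17, adjusted p = 0.0543 and 0.117). The second call was also lost in barcodes of at least 5000 UMIs (2.08, edgeR adjusted p = 0.0612) and with free RNA removed (2.12, edgeR adjusted p = 0.0616). The part of free RNA and of doublets in these values was not tested beyond these alternatives.

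Members varied among themselves. Leiden clustering without the gate genes gave 8 sub-clusters, numbered here, whose leading genes are a description because the clusters were formed from the same values. Sub-cluster 1 (86 and 166 members) was led by *CNTN5*, *TENM2*, *HPSE2*, *ADAM12* and *HGF*, and had *ITGA8*, an integrin, at 913 and 960 CPM and *ROBO2* at 844 and 778. Sub-cluster 2 (64 and 103) had *AQP3* at 312 and 178 CPM, *CFI* at 175 and 97.8 and the highest *SCN7A*, at 405 and 368. *TCF21* was at 250 and 231 CPM in sub-cluster 1 and 331 and 378 in sub-cluster 2.

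Sub-cluster 3 (83 and 66 members) was led by genes of liver and endoderm (*AFP*, *APOA2*, *TTR*, *FABP1*, *APOC3*, *APOA1* and *SERPINA1*), all but *APOA1* with no UMI in organoid 33.10, and by the sarcomere genes *ACTC1*, *MYL4* and *NEBL*. Both organoids carried the sarcomere transcripts, with *TNNT2* at 2020 and 2430 CPM, *ACTC1* (cardiac actin) at 816 and 744 and *MYL4* at 725 and 1110, beside *TBX18* at 270 and 257, *TCF21* at 271 and 195 and *SCN7A* at 366 and 336. It was present in both organoids at 25.7% and 14.3% of members, and 4.82% and 9.09% of its members were among the barcodes scored highest by Scrublet. Its *AFP* level of 670 CPM was limited to organoid 32.7, where 3 members held 98.2% of its UMIs.

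Sub-cluster 4 (33 and 22 members) was led by *LRP2*, *NPHS1* and *SMOC2*. It had *NPHS1* at 330 and 145 CPM, *LRP2* (the endocytic receptor megalin) at 90.5 and 74.4, *PODXL* at 124 and 85.1, *KRT19* at 1860 and 1680 and *KRT8* at 1940 and 1660. Its *TBX18*, at 415 and 340 CPM, and *WT1*, at 225 and 301, were the highest of the 8 sub-clusters, and *ALDH1A2* was at 56.8 and 14.2. *HGF* and *ITGA8*, at 82.1 and 88.6 and at 202 and 138 CPM, were under the levels of sub-cluster 1. None of its members was among the top-scoring barcodes in either organoid.

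**Figure D4:**
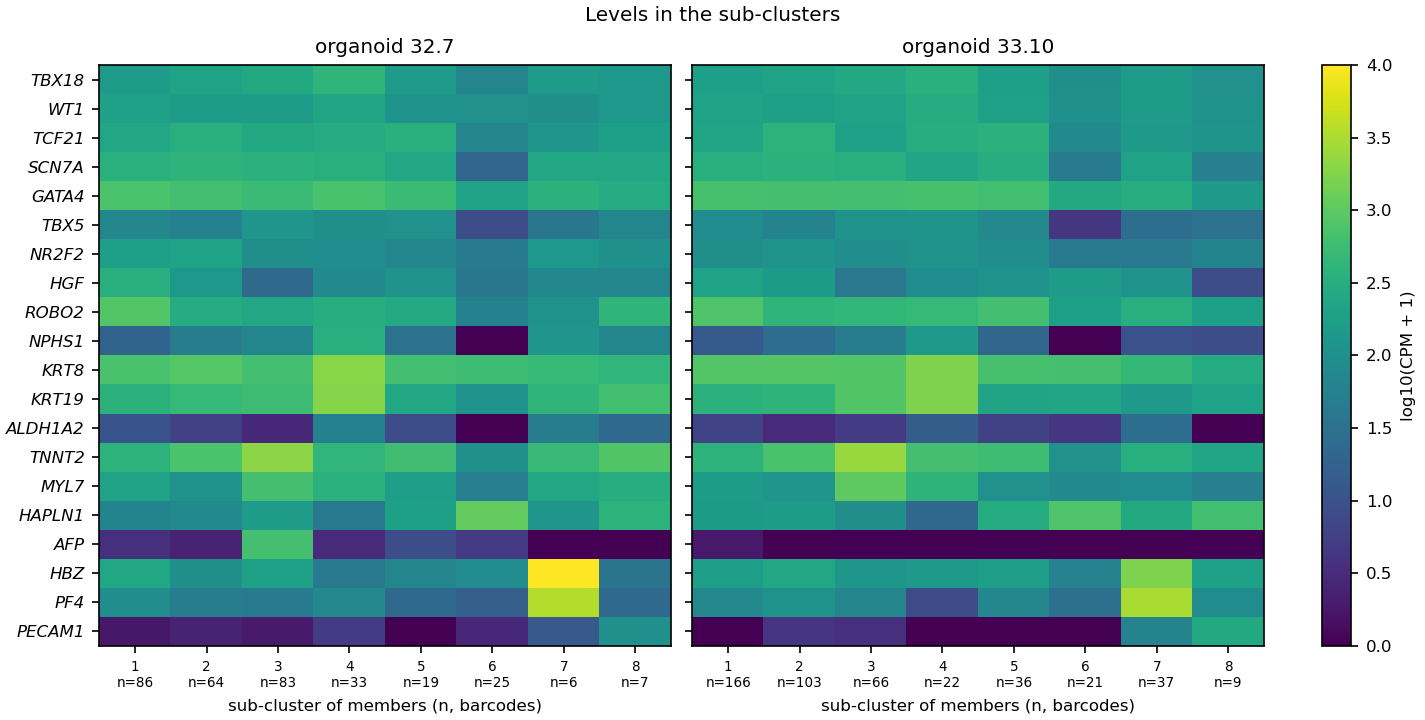
Levels of 20 genes, as log10(CPM + 1) by colour, in the 8 sub-clusters of TBX18+ WT1+ members in each organoid, with the number of barcodes below each column. KRT8, KRT19 and NPHS1 peaked in sub-cluster 4, TNNT2 and MYL7 in sub-cluster 3, and SCN7A and TCF21 were low in sub-cluster 6.

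Sub-cluster 5 (19 and 36 members) carried genes of DNA replication, *DTL* at 171 and 178 CPM and *PCLAF* at 257 and 310, although the gate limited *MKI67* and *TOP2A*, and its *TCF21* was at 335 and 376. A further 43 and 90 barcodes met every other condition but held at least 3 UMIs of *MKI67* and *TOP2A*. These cycling cells had *TCF21* at 173 and 194 CPM, *SCN7A* at 185 and 194 and *NPHS1* at 36.1 and 6.32, under the members in each organoid for all 3 genes.

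Sub-cluster 6 (25 and 21 members) went against the label. *SCN7A* was at 19.3 and 42.0 CPM and *TCF21* at 65.7 and 77.6, near the levels of *LUM*-high mesenchyme, *GATA4* was at 203 and 265, *TBX5* at 7.72 and 3.23, and *NPHS1* had no UMI. It had *HAPLN1* at 1110 and 795 CPM, *NRG3* at 1300 and 1010, *TAC1* at 1970 and 1210 and *NGFR* at 158 and 220. Other genes were unlike *LUM*-high mesenchyme, which had *HAPLN1* at 251 and 400 CPM and *TAC1* at 240 and 348. Double-negative mesenchyme had 661 and 876, and 2170 and 2510. *DCN*, at 7.72 and 16.2 CPM in sub-cluster 6, was far under the 664 and 386 of *LUM*-high mesenchyme. Its cells met the gate on *TBX18* (65.7 and 97.0 CPM) and *WT1* (106 and 100), and made up 7.74% and 4.57% of members. Scrublet scored 12.0% and 14.3% of them among its top barcodes.

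Sub-clusters 7 (6 and 37 members) and 8 (7 and 9) held transcripts of other lineages. *PF4*, a platelet chemokine, was at 3510 and 3160 CPM in sub-cluster 7 and *PECAM1* at 102 and 268 in sub-cluster 8. Scrublet scored 83.3% and 75.7% of the first and 100% and 77.8% of the second among its top barcodes. Removing those barcodes from all classes took 21 (6.5%) and 44 (9.57%) members, and left *TCF21*, *SCN7A*, *NPHS1*, *NR2F2*, *SEMA3D* and *HAND1* with the same calls in all 3 comparisons.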

How the data were processed

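Single-cell libraries of 2 BG-HFOs (32.7 and 33.10, day 14) were analysed. The deposited counts are whole UMIs per gene and barcode, made by the authors with Cell Ranger 7.0.0 on GRCh38 with intronic reads, before their depth equalization and SoupX correction, so free RNA remains. The libraries held 16866 and 19948 barcodes, of which the study's filter (50 to 11000 genes, under 30% mitochondrial) leaves 16792 and 19893, where the study shows 10000 per sample. Depths were 191152562 and 233818881 UMIs. Feature and barcode lists served as names only.

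The gate and gene lists were chosen with earlier results of these data known. UMIs of 6 gated classes were summed per organoid, and the 12 sums entered 1 fit by edgeR 4.0.16 (R 4.3.3; TMM, filterByExpr, quasi-likelihood test, Benjamini-Hochberg adjustment over all genes tested, the 10 gate genes left out). The standard error is the log2 fold change divided by the square root of F. Simulated counts were used to check the calls and not this standard error. Against *LUM*-high mesenchyme, double-negative mesenchyme and cardiomyocytes, 197, 200 and 200 of 200 altered genes were recovered. False calls numbered 4, 5 and 1 in the same order. Whether these numbers hold for sums paired by organoid was not tested. With 2 organoids the p-values rest on the spread between these organoids pooled over classes. Classes of the same organoid are paired by origin, and their deviations correlated at 0.133 to 0.357, so a fit with the organoid as a block was also run and is given where it moved a count by over 1.5 times. Named genes were those of 14 lists and, per comparison, the 10 called genes with the largest fold change each way with at least 20 CPM in the higher class and 1 direction in both organoids.

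Doublets were kept. As an alternative the top-scoring barcodes by Scrublet (scanpy 1.11.5, assumed rates of 13.5% and 16.0%) were removed, since its own threshold marked 0.0% in organoid 32.7. Members were clustered with leidenalg 0.10.2 at resolution 0.4. Shares were also thinned to 4000 UMIs (306 of 323 and 433 of 460 members kept). Gene positions are from GENCODE release 44 and promoters from RefSeq, both on GRCh38. Other alternatives were DESeq2 1.42.0, no filter on low counts, at least 2 UMIs of both gate genes, at least 5000 UMIs per barcode, 10% of the library profile removed as free RNA, and *MYH6* at 0. Globin paralogues such as *HBG1* and *HBG2* share sequence, and their split is uncertain. Some named genes are not reported here.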

Additional observations from a re-analysis of the deposited data

How the results depend on the processing

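Of 264 calls of named genes, 229 held under all 8 alternatives that give a test. Counts of called genes stayed within 1.5 times except against double-negative mesenchyme: genes higher went from 312 to 476 with the organoid as a replicate block and 522 with at least 2 UMIs of both gate genes, and genes lower from 340 to 604 without the filter on low counts and 538 with at least 2 UMIs. The block ended no call and added 48 among named genes. The mean share of members (2.11%) was 0.649% with at least 2 UMIs of both genes and 2.83% among barcodes of at least 5000 UMIs, and 1.92 to 2.31% with 1 organoid left out. With 1 organoid left out there is no residual error, so only fold changes were taken: 527 kept their sign and 1 reversed, *TTR* against cardiomyocytes (4.46 without replicate 2, organoid 33.10, and -1.68 without replicate 1, organoid 32.7, and -0.98 with at least 2 UMIs of both genes). *TYROBP* against double-negative mesenchyme, not called at first, was called lower at -1.32 with at least 2 UMIs. The cause of these changes was not tested. Sub-clusters numbered 8, and 11 at resolution 0.8. Levels of genes with few UMIs, such as *UPK3B* and *MSLN*, cannot be compared at this depth.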
